A study of Mus musculus with 6 samples.

Results

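A set of 42 genes for DNA replication and S phase was followed across RNA-seq libraries of NIH3T3 cells, an established mouse fibroblast line. The genes were given as a list of symbols, and all 42 were found among the 24062 genes counted. All 42 also passed the filter on low counts that left 13185 genes for testing. The study asked how SPT6, a transcription elongation factor and histone chaperone encoded by Supt6, bears on transcription stimulated by interferon beta (IFN-beta). The groups were SPT6 siRNA with IFN-beta (2 libraries), negative control (NC) siRNA with IFN-beta (2 libraries), SPT6 siRNA untreated (1 library) and NC siRNA untreated (1 library). The siRNA was left on the cells for 48 h, and the IFN-beta dose was 100 units/ml over 4 h. By their titles, untreated libraries stand at 0 h, so what the 4 h alone did and what IFN-beta did cannot be told apart. The labels name 1 SPT6 siRNA, so its effects on other transcripts cannot be told apart from those of losing Supt6. They do not say whether replicates were separate cultures, so the p-values here rest on a spread between libraries that may be only technical.

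Before a cell copies its DNA, the origin recognition complex, CDC6 and CDT1 load rings of MCM proteins onto origins in G1. At the start of S phase CDC45 and the GINS complex turn each ring into an active helicase, and primase, DNA polymerases, the sliding clamp PCNA and its loader build the new strands. Nucleotide synthesis supplies the building blocks, and histone chaperones package the copies. Many of these genes are transcribed late in G1 under E2F factors, whose activity is held back by retinoblastoma proteins. They are therefore commonly read as markers of cells in, or about to enter, S phase. Each library holds RNA of many cells, so a smaller share of cells in S phase and less of these RNAs per cell cannot be told apart.

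Promoter sequences were searched for E2F letters, which a minority of the genes held. RefSeq windows on GRCm38.p6, from 250 bases before to 50 bases after a start site, were at hand for 35 of the 42 genes. Mcm4, Gins1, Gins2, Prim2, Pole, Rfc2 and Ccne2 had none. The E2F letters searched were TTTCGCGC, TTTGGCGC, TTTCCCGC and TTTGCCGC, on both strands. At least 1 of them occurred in 12 of the 35 genes (34.3%), in 27.8% of 90 other pathway genes, in 4.55% of 22 G2/M genes, in 4.63% of the 9816 tested genes with a window and in 2.60% of all 27025 genes with a window. The letters CCAAT, searched likewise, occurred in 60.0% of the 35 genes, in 51.1% of the other pathway genes, in 86.4% of the G2/M genes and in 43.4% of tested genes. The letters TTTGAA, the cell cycle homology region of many mitotic genes, occurred in 11.4% of the 35 genes, in 21.1% of the other pathway genes, in 77.3% of the G2/M genes and in 14.1% of tested genes. A match describes letters only, not a bound site. The 250 bases before the start site are shown for Mcm5, Mcm6 and Rfc3, each with a log2 difference under -0.70 between SPT6 siRNA and NC siRNA cells given IFN-beta, and for Slbp, which alone lay higher there in all 3 pairs of libraries. They lie at chr8:75109259-75109508 (plus strand), chr1:128359706-128359955 (minus strand), chr5:151651209-151651458 (minus strand) and chr5:33652575-33652824 (minus strand). Each is written 5′ to 3′ on the gene's strand, with E2F letters in capitals. In Mcm5, and at the first match in Mcm6, forms on opposite strands overlap and run on as 1 stretch of capitals.
Mcm5: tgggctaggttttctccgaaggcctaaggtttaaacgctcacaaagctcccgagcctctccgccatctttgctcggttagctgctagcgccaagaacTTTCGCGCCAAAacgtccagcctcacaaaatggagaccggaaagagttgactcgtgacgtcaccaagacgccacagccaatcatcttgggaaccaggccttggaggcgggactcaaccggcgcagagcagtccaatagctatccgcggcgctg
Mcm6: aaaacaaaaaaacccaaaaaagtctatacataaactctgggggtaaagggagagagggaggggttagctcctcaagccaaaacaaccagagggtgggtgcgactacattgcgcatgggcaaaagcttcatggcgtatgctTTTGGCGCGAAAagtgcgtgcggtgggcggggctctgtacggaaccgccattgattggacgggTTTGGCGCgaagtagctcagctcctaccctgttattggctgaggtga
Rfc3: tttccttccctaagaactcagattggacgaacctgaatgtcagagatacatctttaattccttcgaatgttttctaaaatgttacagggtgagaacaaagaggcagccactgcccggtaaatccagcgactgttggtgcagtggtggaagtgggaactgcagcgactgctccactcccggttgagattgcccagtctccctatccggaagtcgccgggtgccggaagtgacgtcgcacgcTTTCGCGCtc
Slbp: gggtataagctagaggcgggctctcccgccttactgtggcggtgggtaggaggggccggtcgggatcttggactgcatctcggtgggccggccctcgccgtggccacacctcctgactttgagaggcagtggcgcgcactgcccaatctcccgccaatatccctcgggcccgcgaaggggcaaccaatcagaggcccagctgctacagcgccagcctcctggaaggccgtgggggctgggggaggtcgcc
Within the stretches shown, Mcm5 held 2 overlapping matches, Mcm6 held 3 and Rfc3 held 1, with a further match in Rfc3 just past the stretch, while none of the 4 forms was found in the Slbp window. Among genes with E2F letters the median log2 difference of SPT6 siRNA against NC siRNA with IFN-beta was -0.70 (12 genes, -0.94 to -0.19), and among those without it was -0.55 (23 genes, -0.80 to 0.21). The ranges overlapped widely, and this split was not tested. The stretches shown are chosen examples, and genes without the letters, such as Mcm2 (-0.80), also lay under -0.70.

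The libraries held 7935961 to 17596498 counts in genes, and the SPT6 siRNA library was the smaller in each pair of like treatment and number. Levels are given as CPM, counts scaled to the size of the library. With IFN-beta, Supt6 stood at 108 and 88.4 CPM in SPT6 siRNA cells, against 177 and 189 CPM in NC siRNA cells, and without treatment at 101 CPM in SPT6 siRNA cells, against 175 CPM in NC siRNA cells. Supt6 (chromosome 11, 78206746 to 78245987, minus strand, GRCm38) was thus lower in every SPT6 siRNA library. Its log2 difference was -0.90 ± 0.18 (SE) with IFN-beta (edgeR adjusted p = 0.247) and -0.86 ± 0.12 (SE) over both treatments, where it was called (adjusted p = 0.0341). That call was lost on leaving out any library except SPT6 siRNA with IFN-beta replicate 1 (adjusted p 0.0624 to 0.256). The 8 fibroblast markers summed to 10008 and 7471 CPM in SPT6 siRNA cells with IFN-beta, against 14293 and 11849 CPM in NC siRNA cells, and untreated to 11196 CPM in SPT6 siRNA cells, against 14226 CPM in NC siRNA cells. They were therefore also lower with SPT6 siRNA in each pair. The 5 epithelial markers summed to 0.575 to 1.30 CPM per library, with Epcam at 0 counts in all 6. Endothelial markers (5 genes) summed to 3.36 and 5.91 CPM with IFN-beta and 3.96 CPM untreated in SPT6 siRNA cells, against 3.99 and 1.60 CPM with IFN-beta and 2.71 CPM untreated in NC siRNA cells. Cdkn2a, which NIH3T3 cells have lost, had 0 counts in all 6 libraries. Macrophage markers (5 genes found) summed to 15.2 and 18.3 CPM with IFN-beta and 15.0 CPM untreated in SPT6 siRNA cells, against 8.96 and 7.72 CPM with IFN-beta and 11.0 CPM untreated in NC siRNA cells. Most of that difference lay in Cd68, which was called higher over both treatments (log2 difference 1.72 ± 0.24 (SE), adjusted p = 0.0341), while the leukocyte gene Ptprc had 0 to 3 counts per library. The part of these markers in the results below was not tested.

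The replication genes took their highest values in 1 library. Their summed level was 2218 CPM with SPT6 siRNA and 2658 CPM with NC siRNA in IFN-beta pair 1, 2734 CPM with SPT6 siRNA and 4274 CPM with NC siRNA in IFN-beta pair 2, and 2331 CPM with SPT6 siRNA and 2765 CPM with NC siRNA in the untreated pair. Pairs here are of like treatment and number, although the labels do not say that equal numbers pair the libraries. On that pairing the SPT6 siRNA library held 83.4%, 64.0% and 84.3% of the level of its NC siRNA partner. Across numbers, SPT6 siRNA with IFN-beta replicate 2 (2734 CPM) lay above NC siRNA with IFN-beta replicate 1 (2658 CPM). NC siRNA with IFN-beta replicate 2 was the highest of the 6 libraries for 40 of the 42 genes, as it was for 21% of all tested genes. SPT6 siRNA with IFN-beta replicate 1 was the lowest for 27 of the 42, against 13.1% of tested genes. Untreated SPT6 siRNA was the lowest for a further 10, and the share of tested genes lowest there was not counted. Of the other two, Rfc4, a subunit of the clamp loader, was highest in untreated NC siRNA, and Slbp, which binds the stem loop of histone mRNAs, in SPT6 siRNA with IFN-beta replicate 2.

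**Figure D1:**
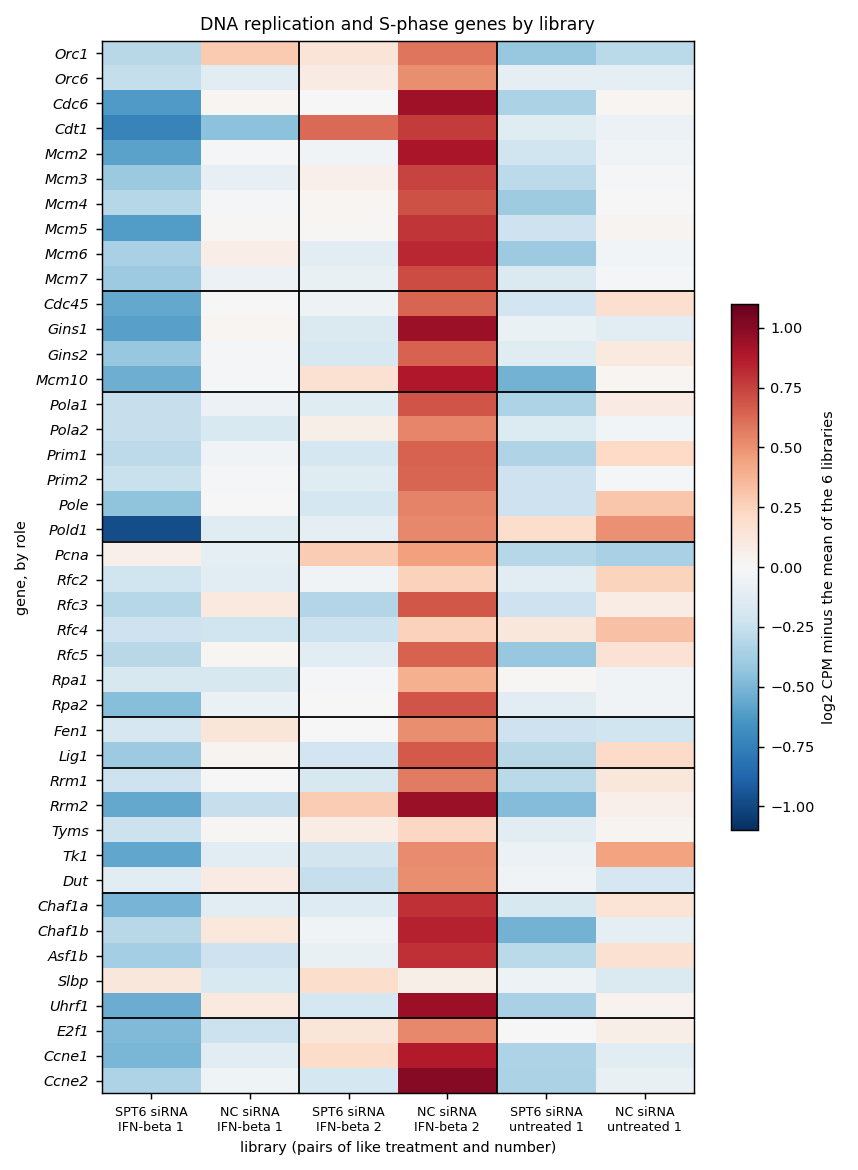
Level of the 42 genes in each library, as log2 CPM minus the gene's mean over the 6 libraries. Rows are genes grouped by role and columns are libraries in pairs of SPT6 siRNA beside NC siRNA. The column of NC siRNA with IFN-beta replicate 2 is the highest in 40 of 42 genes, and SPT6 siRNA with IFN-beta replicate 1 is the lowest in 27.

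Per kilobase of exon, the genes spanned a 37.4-fold range of mean level over the 6 libraries. Pcna was the highest, at 159.6 ± 36.5 CPM per kb (SD, n = 6), and its lowest library lay above the highest library of every other gene. Next came Rrm1, the large subunit of ribonucleotide reductase, at 50.999 ± 12.5 CPM per kb, then Mcm4 at 41.998 ± 12.6 and Rrm2 at 39.7 ± 17.4 CPM per kb. Their ranges over libraries overlapped. The lowest were Cdc6 at 5.59 ± 2.31, Ccne2 at 5.01 ± 2.21 and Gins2 at 4.27 ± 1.18 CPM per kb. Exon length is that of a gene's merged exons in the GENCODE annotation of GRCm38, while the annotation used for counting is not known. In Gins2, 70.7% of this length is shared with Gse1, and what that did to its rank and to the 37.4-fold range was not tested. Within a gene, the highest library exceeded the lowest by 1.28-fold in Slbp up to 2.94-fold in Cdc6, with a median of 2.12-fold. Counts per gene and library ran from 53 to 5467.

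**Figure D2:**
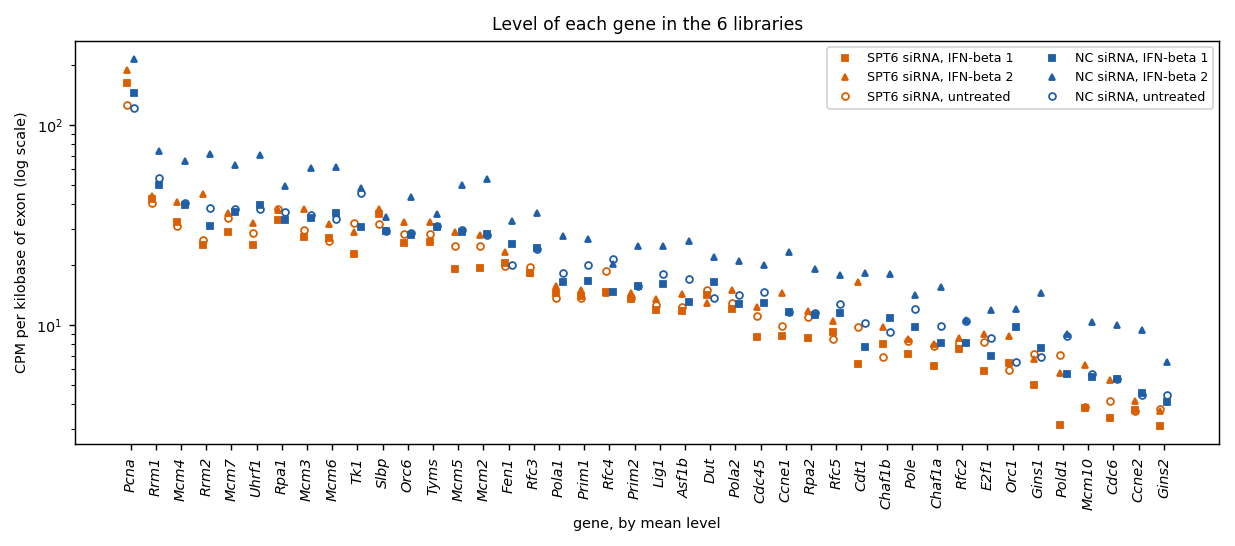
Level of each gene in every library, in CPM per kilobase of exon on a log scale, with genes ordered by mean level. SPT6 siRNA libraries are orange and NC siRNA libraries blue, with filled marks for IFN-beta and open circles for untreated. Pcna stands above the other genes, and the blue triangle of NC siRNA with IFN-beta replicate 2 is the top mark of 40 genes.

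With SPT6 siRNA the replication genes lay lower as a group, but none was called by edgeR's test on the 4 group means. In cells given IFN-beta, 41 of the 42 had a log2 difference below 0, against 52% of all tested genes. The median log2 difference was -0.58 (quartiles -0.69 and -0.44), against -0.02 over all tested genes. None of the 42 was called by edgeR's quasi-likelihood test at a Benjamini-Hochberg adjusted p under 0.05, nor was any other gene (0%), and the smallest adjusted p among the 42 was 0.36. DESeq2 called 0 of the 42 lower as well (0.0322% of tested genes), and limma-voom called 0 of the 42. At an unadjusted p under 0.05, 6 of the 42 lay lower (14.3%, against 4.31% of tested genes) and 0 lay higher (7.36% of tested genes). These were Mcm6, Gins1, Pole, Rfc3, Lig1 and Uhrf1, and over all genes 1538 had such a p. Both SPT6 siRNA libraries lay below both NC siRNA libraries in 25 of the 42 genes, against 21.3% of tested genes. In the other 17, SPT6 siRNA replicate 2 lay above NC siRNA replicate 1. The size of the difference rested on 1 library. Without NC siRNA with IFN-beta replicate 2 the median was -0.20, with 32 of 42 genes below 0. Without NC siRNA with IFN-beta replicate 1 it was -0.88, with 41 genes below 0. Leaving out SPT6 siRNA with IFN-beta replicate 1 gave 39 genes below 0, and leaving out its replicate 2 gave 41. Each of these fits left 1 library in a group, so only sizes and directions are given.

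Within each pair of libraries of like number, most genes lay lower with SPT6 siRNA. The labels do not give this pairing. Across numbers, SPT6 siRNA with IFN-beta replicate 2 lay above NC siRNA with IFN-beta replicate 1 in 17 of the 42 genes. The share of tested genes with this order was not counted. The median log2 difference of SPT6 siRNA minus NC siRNA was -0.32 in IFN-beta pair 1 (40 genes below 0), -0.73 in IFN-beta pair 2 (41 below 0) and -0.26 in the untreated pair (37 below 0, against 52.2% of tested genes). Pair 2 was set apart by size. There 30 of the 42 genes were lower by over 1.5-fold, against 10.8% of tested genes, compared with 6 in pair 1 (6.01% of tested genes) and 0 in the untreated pair (6.32% of tested genes). In all, 37 of the 42 were lower with SPT6 siRNA in all 3 pairs taken by number, against 28.3% of tested genes. Gins1, Rpa1 and Dut were lower in the 2 IFN-beta pairs, Pcna in 1 pair, and Slbp in 0. In IFN-beta pair 1 Rpa1 was nearly level.

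**Figure D3:**
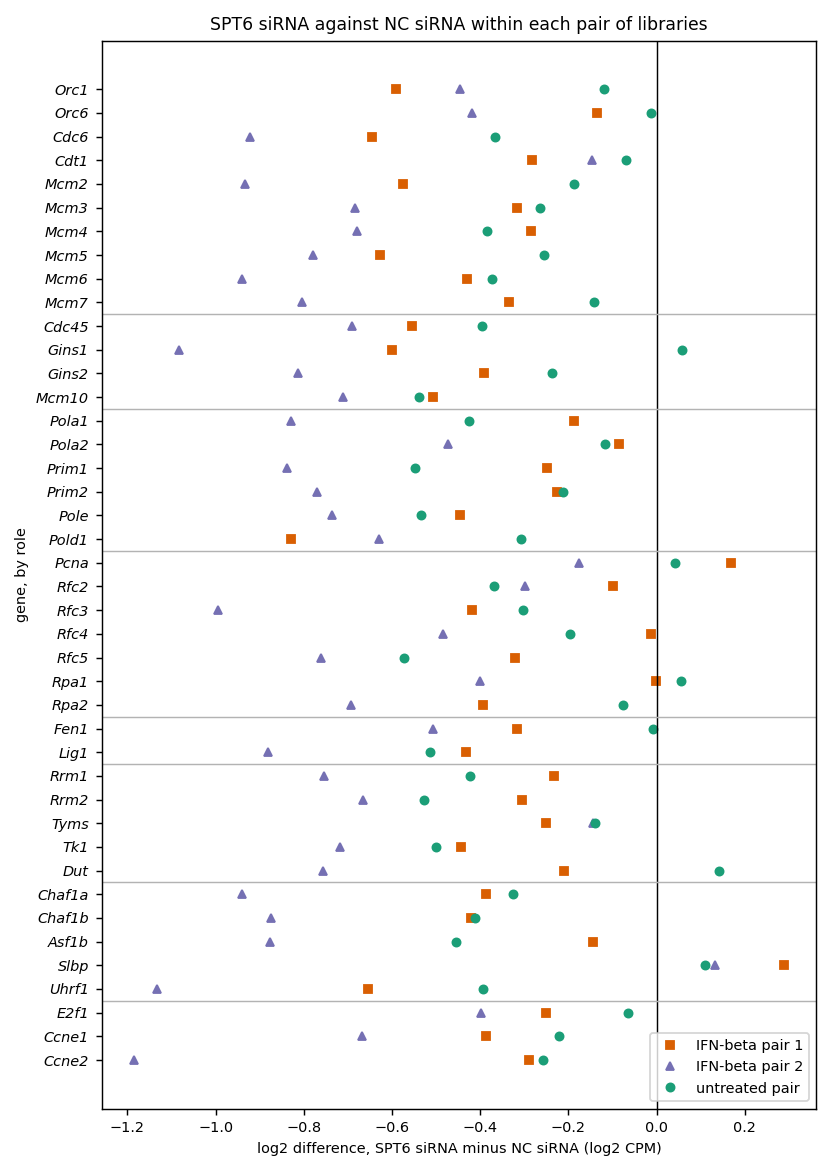
Log2 difference in CPM, SPT6 siRNA minus NC siRNA, for each gene within IFN-beta pair 1 (squares), IFN-beta pair 2 (triangles) and the untreated pair (circles). Marks left of the line are lower with SPT6 siRNA; 37 genes have all 3 marks there, triangles reach furthest left for most genes, and Slbp has all 3 on the right.

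Over both treatments, with 3 SPT6 siRNA against 3 NC siRNA libraries, 41 of the 42 genes were again below 0 (52.3% of tested genes), with a median log2 difference of -0.51. edgeR called 0 of the 42 and 119 of all genes (0.903%). At an unadjusted p under 0.05, 16 of the 42 lay lower (38.1%, against 8.87% of tested genes), 0 lay higher (11% of tested genes), and the smallest adjusted p was 0.108, for Pole. DESeq2 called 3 of the 42 lower, against 1.85% of tested genes. These were Pole (DESeq2 adjusted p = 0.0420), Uhrf1 (0.0420) and Lig1 (0.0445). Without NC siRNA with IFN-beta replicate 2 the median was -0.23, with 36 of the 42 genes below 0, while without its replicate 1 there were 41 below 0. Leaving out SPT6 siRNA with IFN-beta replicate 1 gave 39 below 0, and leaving out either untreated library gave 41.

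Origin licensing genes lay lower with SPT6 siRNA in every member, though Orc6 and Cdt1 by little in the untreated pair. All 10 had a log2 difference below 0 with IFN-beta (median -0.58), all 10 were lower in each of the 3 pairs, and 1 had an unadjusted p under 0.05. With IFN-beta, Mcm6 stood at 118 and 139.9 CPM in SPT6 siRNA cells, against 159 and 268 CPM in NC siRNA cells, and without treatment at 115 CPM in SPT6 siRNA cells, against 149 CPM in NC siRNA cells. Mcm6 (chromosome 1, 128331590 to 128359664, minus strand) encodes a subunit of the MCM2-7 ring, and in each pair its SPT6 siRNA library was the lower, with no overlap between the groups given IFN-beta. Its log2 difference with IFN-beta was -0.73 ± 0.27 (SE) (adjusted p = 0.388 by edgeR). With IFN-beta, Cdc6 measured 16.3 and 25.2 CPM in SPT6 siRNA cells, against 25.6 and 47.96 CPM in NC siRNA cells, and without treatment 19.8 CPM in SPT6 siRNA cells, against 25.6 CPM in NC siRNA cells. Cdc6 (chromosome 11, 98907801 to 98923940, plus strand), which loads the ring together with CDT1, had the largest difference of the licensing genes, -0.82 ± 0.36 (SE) (adjusted p = 0.442), again without overlap. Its top library held 2.94 times the CPM of its bottom one. The other ring subunits, Mcm2, Mcm3, Mcm4, Mcm5 and Mcm7, ranged from -0.80 (Mcm2) to -0.52 (Mcm4), so the ring's 6 genes lay close together. Orc1, the largest subunit of the origin recognition complex, had -0.51 ± 0.23 (SE) and Orc6 -0.30 ± 0.26 (SE). Cdt1, the other loading factor, had -0.19 ± 0.58 (SE). With IFN-beta, Cdt1 reached 13.97 and 35.9 CPM in SPT6 siRNA cells, against 17.01 and 39.8 CPM in NC siRNA cells, and without treatment 21.2 CPM in SPT6 siRNA cells, against 22.3 CPM in NC siRNA cells. The replicates of Cdt1 thus stood further apart than the siRNA groups, and without SPT6 siRNA with IFN-beta replicate 1 its difference was 0.32.

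Genes that activate the helicase were lower to a similar degree. All 4 had a log2 difference below 0 with IFN-beta (median -0.64). With IFN-beta, Gins1 stood at 5.40 and 7.31 CPM in SPT6 siRNA cells, against 8.28 and 15.7 CPM in NC siRNA cells, and without treatment at 7.79 CPM in SPT6 siRNA cells, against 7.48 CPM in NC siRNA cells. Gins1 (chromosome 2, 150905400 to 150931280, plus strand), of the GINS complex that joins CDC45 on the ring, did not overlap between the groups given IFN-beta but was not lower with SPT6 siRNA untreated. Its log2 difference with IFN-beta was -0.91 ± 0.37 (SE) (adjusted p = 0.414), the largest of this role, from low counts. With IFN-beta, Mcm10 measured 19.1 and 31.1 CPM in SPT6 siRNA cells, against 27.2 and 50.9 CPM in NC siRNA cells, and without treatment 19.3 CPM in SPT6 siRNA cells, against 28.1 CPM in NC siRNA cells. Mcm10 (chromosome 2, 4989714 to 5012791, minus strand) is needed to start the helicase. Its SPT6 siRNA replicate 2 lay above NC siRNA replicate 1, and its difference was -0.64 ± 0.37 (SE) (adjusted p = 0.542). Cdc45 had -0.64 ± 0.28 (SE) and Gins2 -0.64 ± 0.28 (SE), both without overlap.

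The 6 primase and polymerase genes also all lay below 0 with IFN-beta (median -0.57). With IFN-beta, Pole stood at 52.8 and 62.8 CPM in SPT6 siRNA cells, against 71.97 and 105 CPM in NC siRNA cells, and without treatment at 61.3 CPM in SPT6 siRNA cells, against 88.8 CPM in NC siRNA cells. Pole (chromosome 5, 110286306 to 110337474, plus strand), the catalytic subunit of the leading strand polymerase epsilon, was lower in each SPT6 siRNA library than in its partner, and its groups did not overlap with IFN-beta. Its difference was -0.61 ± 0.23 (SE) with IFN-beta (adjusted p = 0.389) and -0.59 ± 0.16 (SE) over both treatments (adjusted p = 0.108). With IFN-beta, Pold1 measured 10.9 and 19.9 CPM in SPT6 siRNA cells, against 19.5 and 30.9 CPM in NC siRNA cells, and without treatment 24.5 CPM in SPT6 siRNA cells, against 30.3 CPM in NC siRNA cells. Pold1 (chromosome 7, 44532746 to 44548849, minus strand), of the lagging strand polymerase delta, was lowest in SPT6 siRNA with IFN-beta replicate 1 by a wide margin, and untreated SPT6 siRNA lay above NC siRNA with IFN-beta replicate 1. Its siRNA groups overlapped with IFN-beta, as SPT6 siRNA replicate 2 lay above NC siRNA replicate 1. Its difference was -0.71 ± 0.36 (SE) (adjusted p = 0.494). With IFN-beta, Pola1 reached 76.97 and 83.2 CPM in SPT6 siRNA cells, against 87.7 and 148 CPM in NC siRNA cells, and without treatment 72.5 CPM in SPT6 siRNA cells, against 97.5 CPM in NC siRNA cells. Pola1 (chromosome X, 93304767 to 93632155, minus strand), the catalytic subunit of polymerase alpha, had no overlap and a difference of -0.56 ± 0.26 (SE) (adjusted p = 0.462). Its partner Pola2 had -0.31 ± 0.27 (SE), and the primase genes Prim1 and Prim2 had -0.59 ± 0.26 (SE) and -0.54 ± 0.25 (SE).

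The clamp, clamp loader and single strand binding genes lay nearest to 0 as a group. All 7 were below 0 with IFN-beta, but the median was -0.27. With IFN-beta, Pcna stood at 247 and 287 CPM in SPT6 siRNA cells, against 219.9 and 324 CPM in NC siRNA cells, and without treatment at 190.3 CPM in SPT6 siRNA cells, against 185 CPM in NC siRNA cells. Pcna (chromosome 2, 132249162 to 132253314, minus strand), the sliding clamp, was higher with SPT6 siRNA in IFN-beta pair 1 and in the untreated pair and lower in IFN-beta pair 2. Its difference was -0.03 ± 0.23 (SE) with IFN-beta (adjusted p = 0.974), with a sign that turned under library size scaling (0.058) and without SPT6 siRNA with IFN-beta replicate 1 (0.065). With IFN-beta, Rfc3 measured 23.96 and 23.9 CPM in SPT6 siRNA cells, against 32.1 and 47.8 CPM in NC siRNA cells, and without treatment 25.5 CPM in SPT6 siRNA cells, against 31.6 CPM in NC siRNA cells. Rfc3 (chromosome 5, 151642756 to 151651242, minus strand), a small subunit of the clamp loader, held one level in all 3 SPT6 siRNA libraries, below each NC siRNA library. Its difference was -0.74 ± 0.24 (SE) (adjusted p = 0.360), the smallest p of the 42 in this comparison. The loader's other small subunits differed among themselves, with -0.58 ± 0.25 (SE) for Rfc5, -0.27 ± 0.23 (SE) for Rfc4 and -0.21 ± 0.20 (SE) for Rfc2. Of the replication protein A genes, Rpa1 had -0.23 ± 0.22 (SE) and Rpa2 -0.58 ± 0.31 (SE).

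Both genes of Okazaki fragment joining lay lower. With IFN-beta, Lig1 stood at 41.6 and 47.5 CPM in SPT6 siRNA cells, against 56.2 and 87.7 CPM in NC siRNA cells, and without treatment at 44.4 CPM in SPT6 siRNA cells, against 63.4 CPM in NC siRNA cells. Lig1 (chromosome 7, 13277283 to 13311433, plus strand), the ligase that seals the fragments, was lower in each SPT6 siRNA library than in any NC siRNA library. Its difference was -0.69 ± 0.25 (SE) with IFN-beta (adjusted p = 0.382) and -0.63 ± 0.18 (SE) over both treatments (adjusted p = 0.113). With IFN-beta, Fen1 measured 49.1 and 56.02 CPM in SPT6 siRNA cells, against 61.3 and 79.7 CPM in NC siRNA cells, and without treatment 47.7 CPM in SPT6 siRNA cells, against 47.99 CPM in NC siRNA cells. Fen1 (chromosome 19, 10199132 to 10204169, minus strand), the nuclease that trims their flaps, did not overlap between the groups given IFN-beta, and the untreated pair was nearly level. Its difference was -0.42 ± 0.20 (SE) (adjusted p = 0.472).

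The 5 nucleotide supply genes were all below 0 with IFN-beta (median -0.52), and 0 had an unadjusted p under 0.05. With IFN-beta, Rrm1 stood at 171 and 176 CPM in SPT6 siRNA cells, against 200.5 and 297 CPM in NC siRNA cells, and without treatment at 162 CPM in SPT6 siRNA cells, against 217 CPM in NC siRNA cells. Rrm1 (chromosome 7, 102441695 to 102469771, plus strand) was lower in each SPT6 siRNA library than in any NC siRNA library. Its difference was -0.52 ± 0.22 (SE) (adjusted p = 0.430). With IFN-beta, Tk1 measured 32.5 and 42.01 CPM in SPT6 siRNA cells, against 44.3 and 69.3 CPM in NC siRNA cells, and without treatment 46.3 CPM in SPT6 siRNA cells, against 65.5 CPM in NC siRNA cells. Tk1 (chromosome 11, 117815526 to 117826092, minus strand), thymidine kinase of the salvage pathway, had its top values in NC siRNA with IFN-beta replicate 2 and untreated NC siRNA. Its difference was -0.61 ± 0.27 (SE) (adjusted p = 0.436). With IFN-beta, Dut reached 30.6 and 27.9 CPM in SPT6 siRNA cells, against 35.4 and 47.3 CPM in NC siRNA cells, and without treatment 32.4 CPM in SPT6 siRNA cells, against 29.3 CPM in NC siRNA cells. Dut (chromosome 2, 125247190 to 125258608, plus strand), which removes dUTP, did not overlap with IFN-beta and was higher with SPT6 siRNA untreated. Its difference was -0.50 ± 0.21 (SE) (adjusted p = 0.429). Rrm2, the small subunit of ribonucleotide reductase, had -0.55 ± 0.48 (SE), and Tyms, thymidylate synthase, had -0.19 ± 0.19 (SE).

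Genes of chromatin assembly held both the largest difference and the 1 gene of opposite sign. Their median with IFN-beta was -0.69, with 4 of 5 below 0. With IFN-beta, Uhrf1 stood at 92.2 and 118 CPM in SPT6 siRNA cells, against 145 and 259.7 CPM in NC siRNA cells, and without treatment at 106 CPM in SPT6 siRNA cells, against 139 CPM in NC siRNA cells. Uhrf1 (chromosome 17, 56303321 to 56323486, plus strand), which reads hemimethylated DNA behind the fork, was lower in each SPT6 siRNA library than in any NC siRNA library. Its difference was -0.94 ± 0.30 (SE) with IFN-beta (adjusted p = 0.367) and -0.76 ± 0.24 (SE) over both treatments (adjusted p = 0.159). With IFN-beta, Slbp measured 95.2 and 99.9 CPM in SPT6 siRNA cells, against 77.9 and 91.2 CPM in NC siRNA cells, and without treatment 84.3 CPM in SPT6 siRNA cells, against 78.1 CPM in NC siRNA cells. Slbp (chromosome 5, 33634952 to 33652574, minus strand) was higher in each SPT6 siRNA library than in its partner, although SPT6 siRNA and NC siRNA libraries overlapped. Its difference was 0.21 ± 0.17 (SE) (adjusted p = 0.670). The large and middle subunits of the CAF-1 chaperone, Chaf1a and Chaf1b, had -0.73 ± 0.33 (SE) and -0.69 ± 0.29 (SE), and the chaperone Asf1b had -0.60 ± 0.35 (SE).

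The 3 G1/S regulators were below 0 with IFN-beta (median -0.57). With IFN-beta, Ccne2 stood at 11.9 and 13.2 CPM in SPT6 siRNA cells, against 14.6 and 30.3 CPM in NC siRNA cells, and without treatment at 11.9 CPM in SPT6 siRNA cells, against 14.2 CPM in NC siRNA cells. Ccne2 (chromosome 4, 11191351 to 11204779, plus strand), cyclin E2, which activates CDK2, had close values in 5 libraries and a much higher one in NC siRNA with IFN-beta replicate 2. Its difference was -0.84 ± 0.36 (SE) (adjusted p = 0.435). With IFN-beta, E2f1 measured 18.5 and 28.3 CPM in SPT6 siRNA cells, against 21.98 and 37.3 CPM in NC siRNA cells, and without treatment 25.8 CPM in SPT6 siRNA cells, against 26.95 CPM in NC siRNA cells. E2f1 (chromosome 2, 154559407 to 154569892, minus strand), a transcription factor of the replication genes, overlapped between the siRNA groups. Its difference was -0.34 ± 0.33 (SE) (adjusted p = 0.719). Ccne1, cyclin E1, had -0.57 ± 0.39 (SE). Without NC siRNA with IFN-beta replicate 2 the sign turned for 9 of the 42 genes, namely Orc6 (0.051), Cdt1 (0.56), Pola2 (0.079), Pcna (0.28), Rpa1 (0.084), Rrm2 (0.18), Asf1b (0.0089), E2f1 (0.090) and Ccne1 (0.011).

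By edgeR's test on the 4 group means, no gene of the set was called for its response to IFN-beta, and the 2 replicates differed. With SPT6 siRNA the median log2 difference of IFN-beta against untreated was 0.04, with 18 genes below 0 (against 49.3% of tested genes), and 0 of the 42 were called (0.0455% of all genes). With NC siRNA it was 0.35, with 5 genes below 0 (against 50.6% of tested genes), and 0 of the 42 were called (0.137% of all genes). At an unadjusted p under 0.05 there was 1 of the 42 with NC siRNA, Orc1 (log2 difference 0.75 ± 0.30 (SE), adjusted p = 0.591), against 5.29% of tested genes higher and 2.94% lower. With SPT6 siRNA there were 0 of the 42, against 3.84% of tested genes higher and 2.01% lower. DESeq2 and limma-voom called 0 of the 42 in either response. By replicate, the median against untreated was -0.11 and 0.17 with SPT6 siRNA and -0.05 and 0.65 with NC siRNA for replicates 1 and 2. Without NC siRNA with IFN-beta replicate 2 the median with NC siRNA was -0.046, and without SPT6 siRNA with IFN-beta replicate 2 that with SPT6 siRNA was -0.13. The genes' direction under IFN-beta thus rested on the second replicates. Pold1 was the lowest with SPT6 siRNA (log2 difference -0.66 ± 0.43 (SE), adjusted p = 0.896), and Pcna the highest there (0.49 ± 0.29 (SE), adjusted p = 0.887).

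The test of the difference between the responses, SPT6 siRNA minus NC siRNA, called 0 of the 42 and 0% of all genes, and 0 of the 42 had an unadjusted p under 0.05 (0.0834% of tested genes lower, 0.296% higher). The median difference was -0.28, with 39 genes below 0 (51% of tested genes), and 0.14 without NC siRNA with IFN-beta replicate 2, or -0.56 without NC siRNA with IFN-beta replicate 1. DESeq2 and limma-voom called 0 genes for this difference. In Gins1, Rfc3 and Dut both IFN-beta replicates lay below the untreated library with SPT6 siRNA and above it with NC siRNA. Their differences were -0.97 ± 0.65 (SE), -0.44 ± 0.41 (SE) and -0.64 ± 0.37 (SE) (adjusted p = 0.9999 in each), and they were named for this after their values were seen. The share of all tested genes with this order of libraries was not counted, and each untreated group is 1 library. An opposite response of these genes is thus not shown.

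Replicate libraries of one group also differed in these genes. Replicate 2 held 123% of the summed CPM of replicate 1 with SPT6 siRNA and IFN-beta, and 161% with NC siRNA and IFN-beta. With SPT6 siRNA, 39 of the 42 genes were higher in replicate 2 (median log2 difference 0.31), 8 of them by over 1.5-fold, against 11.1% of tested genes. With NC siRNA all 42 were higher in replicate 2 (median 0.69), 30 of them by over 1.5-fold, against 7.24% of tested genes. Cdt1 stood furthest apart in both groups, with a log2 difference of replicate 2 minus replicate 1 of 1.35 with SPT6 siRNA and 1.22 with NC siRNA. The labels give no batch or date for the replicate numbers, so what set them apart was not tested.

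Other genes of the pathway, listed with earlier results of these data known, also lay mostly below 0. Of 115 listed, 113 were tested, and their median log2 difference with IFN-beta was -0.34, with 93 below 0, against 52% of tested genes. edgeR called 0 of them. At an unadjusted p under 0.05, 19 of the 113 lay lower (16.8%, against 4.31% of tested genes) and 5 lay higher (against 7.36% of tested genes). Further fork and origin genes (38 tested) had a median of -0.34, with 8 lower and 2 higher. Among these, Gmnn, which encodes the licensing inhibitor geminin, had -1.01 ± 0.32 (SE) (adjusted p = 0.357), and Dbf4, the activating subunit of the CDC7 kinase, had -0.79 ± 0.25 (SE) (adjusted p = 0.357). With IFN-beta, Pold4 measured 30.6 and 38.1 CPM in SPT6 siRNA cells, against 19.7 and 19.3 CPM in NC siRNA cells, and without treatment 25.7 CPM in SPT6 siRNA cells, against 19.2 CPM in NC siRNA cells. Pold4, the smallest subunit of polymerase delta, thus lay higher in each SPT6 siRNA library than in any NC siRNA library, opposite to Pold1 and Pold3, with a difference of 0.82 ± 0.20 (SE) (adjusted p = 0.309).

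Nucleotide metabolism genes outside the set (16 tested) had a median of -0.13, with 0 lower and 1 higher at such a p. The higher one was Rrm2b, the p53-inducible small subunit of ribonucleotide reductase. With IFN-beta, Rrm2b stood at 32.9 and 38.5 CPM in SPT6 siRNA cells, against 20.7 and 19.9 CPM in NC siRNA cells, and without treatment at 25.8 CPM in SPT6 siRNA cells, against 20.4 CPM in NC siRNA cells. Every SPT6 siRNA library lay above every NC siRNA library, and the difference was 0.81 ± 0.19 (SE) (adjusted p = 0.309), while the S-phase subunit Rrm2 was at -0.55. Further E2F and G1/S genes (29 tested) had a median of -0.26, with 4 lower and 2 higher. Usp1 and Skp2 had the smallest p of this list by edgeR, ahead of Cdkn1a. The values of Cdkn1a thus do not stand for the list, whose median was below 0. With IFN-beta, Cdkn1a stood at 71.7 and 84.1 CPM in SPT6 siRNA cells, against 53.2 and 58.2 CPM in NC siRNA cells, and without treatment at 75.5 CPM in SPT6 siRNA cells, against 48.9 CPM in NC siRNA cells. Cdkn1a, which encodes the CDK inhibitor p21, was higher in each SPT6 siRNA library than in any NC siRNA library, with a difference of 0.48 ± 0.18 (SE) with IFN-beta (adjusted p = 0.388) and 0.53 ± 0.13 (SE) over both treatments (adjusted p = 0.0814). Chromatin replication genes (10 tested) had a median of -0.42, with 2 lower (Cdca7 and Hells), and genes of the replication checkpoint and fork repair (20 tested) had -0.41, with 5 lower. Samhd1, which breaks down dNTPs and is known as an interferon-induced gene, had a log2 difference of IFN-beta against untreated of 0.92 ± 0.23 (SE) with SPT6 siRNA (adjusted p = 0.601) and 0.995 ± 0.23 (SE) with NC siRNA (adjusted p = 0.338).

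Genes of G2 and mitosis lay lower with SPT6 siRNA as well. All 25 were below 0 with IFN-beta (median -0.62), against 52% of tested genes. At an unadjusted p under 0.05, 16 of the 25 lay lower, against 4.31% of tested genes, and 0 were called by edgeR. The G2/M medians lay nearer those of the replication genes in both IFN-beta pairs than in the untreated pair. The G2/M median was -0.29 in IFN-beta pair 1, -0.87 in IFN-beta pair 2 and -0.62 in the untreated pair, where the replication genes were at -0.26. Between replicates, SPT6 siRNA with IFN-beta replicate 2 differed from replicate 1 by a median of -0.01 in G2/M genes and 0.31 in replication genes. With NC siRNA and IFN-beta the same medians were 0.53 and 0.69. The difference between the lists was not tested.

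**Figure D4:**
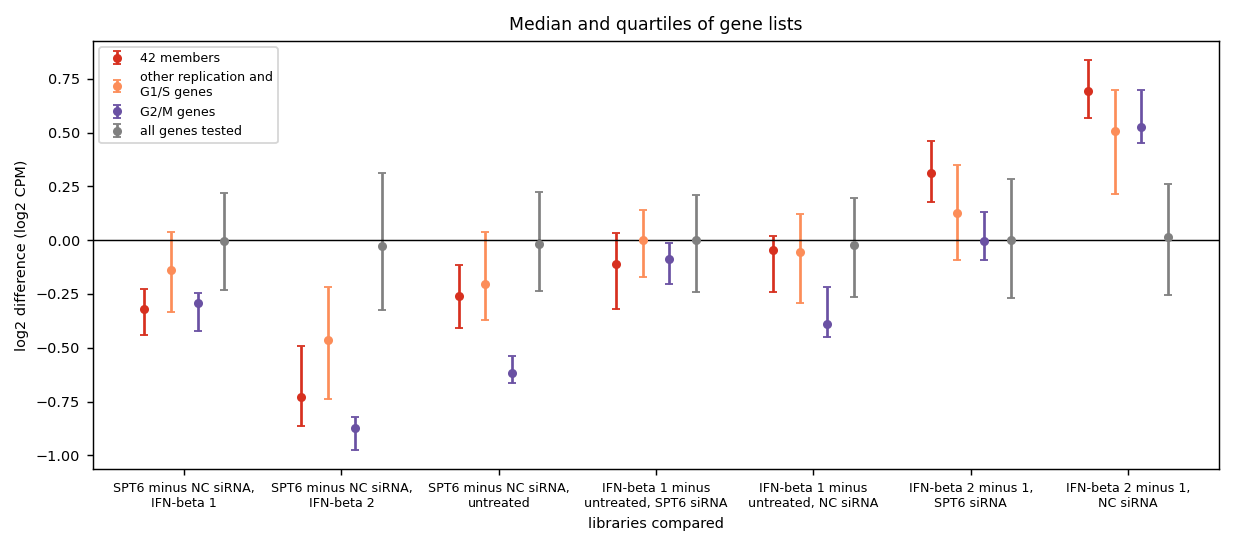
Median log2 difference (points) and quartiles (bars) of the 42 replication and S-phase genes, 113 other replication and G1/S genes, 25 G2/M genes and all 13185 tested genes, for 7 comparisons of single libraries. The 42 genes lie below 0 in each SPT6 siRNA minus NC siRNA pair and above 0 in both comparisons of replicate 2 minus 1, while all tested genes stay near 0.

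The counting limits some of these values. By GENCODE annotation of GRCm38, exons of 16 of the 42 genes share bases with another gene, 15 of them on the opposite strand, and 10 share at least 10% of their exon length. The largest shares were 78.8% in Fen1 (with Gm10143), 70.7% in Gins2 (with Gse1) and 33.6% in Chaf1a (with Ubxn6). The sources used here do not say if the counting used strand, or which annotation it used. Whether reads of the shared bases were left out, or counted together with those of such partners, is thus not known. Slbp shares 14.4% of its exon length with Gm10459.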

How the data were processed

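RNA-seq libraries of NIH3T3 cells were given as deposited raw counts of reads per gene, 1 column per library. Per the submitters' processing notes the tools were HTSeq 0.6.1p1, TopHat2 2.1.0 and DESeq2, with the builds mm10 and GRCm38, all without roles. The annotation and strand setting are not given in the sources used here. Reads not assigned to a gene (62.0 to 67.1% of those counted) were left out of library sizes. Of those counted, 33.8 to 37.5% fell in no annotated feature and 27.9 to 31.3% had no unique alignment. Counts were filtered with filterByExpr (minimum 10), scaled by TMM and tested with edgeR 4.0.16 (robust quasi-likelihood test, R 4.3.3) over 13185 genes, with Benjamini-Hochberg adjustment over all of them and a threshold of 0.05. One fit of 4 group means served the 4 comparisons within a treatment or siRNA and their difference, and a fit of siRNA plus treatment served the comparison over both treatments. Levels (CPM) are counts over TMM-scaled library sizes. Differences between single libraries are in log2 CPM with a prior count of 2, have no test, and are counted past 1.5-fold. Alternatives were other scalings, filters, DESeq2 1.42.0, limma-voom (limma 3.58.1), a replicate block and leaving out libraries. The 42 genes and all lists were chosen with earlier results of these data known. Full values are given for the members of each role with the highest CPM, the largest difference or the smallest p with IFN-beta, and for Cdt1 and Slbp, added after their values were seen. Of other lists, up to 4 genes with the smallest p were named, and beside them Cdkn1a, Rrm2b and Supt6.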

Additional observations from a re-analysis of the deposited data

How the results depend on the processing

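The median log2 difference of the 42 genes with SPT6 siRNA stayed below 0 under each scaling, filter and tool run and on leaving out any library. Leaving out IFN-beta libraries 1 at a time gave medians of -0.88 to -0.20 with IFN-beta and -0.68 to -0.23 over both treatments. For the response to IFN-beta the medians were -0.13 to 0.17 with SPT6 siRNA and -0.046 to 0.64 with NC siRNA, and for the difference of the responses -0.56 to 0.14. The median response with SPT6 siRNA was -0.010 under library size scaling. The sign of 9 genes with IFN-beta turned with 1 library left out, with ranges of -0.57 to 0.051 for Orc6, -1.02 to 0.56 for Cdt1, -0.61 to 0.079 for Pola2, -0.27 to 0.28 for Pcna, -0.47 to 0.084 for Rpa1, -1.03 to 0.18 for Rrm2, -1.004 to 0.0089 for Asf1b, -0.69 to 0.090 for E2f1 and -0.97 to 0.011 for Ccne1. Over both treatments it turned in 5, with -0.34 to 0.025 for Orc6, -0.59 to 0.29 for Cdt1, -0.14 to 0.18 for Pcna, -0.25 to 0.072 for Rpa1 and -0.42 to 0.025 for E2f1. Positive values came without NC siRNA with IFN-beta replicate 2 and, for Cdt1 (0.32 with IFN-beta, 0.17 over both treatments) and Pcna (0.065 and 0.064), also without SPT6 siRNA with IFN-beta replicate 1. Pcna also turned under library size scaling (0.058 with IFN-beta, 0.069 over both treatments) and, over both treatments, with a count minimum of 30 (0.013), limma-voom (0.014), the replicate block (0.010) and DESeq2 with the block (0.0050).

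Counts of called genes moved more. With IFN-beta, 0 genes were called by edgeR, against 66 without a count filter and 62 by DESeq2. Over both treatments there were 119, against 222 under library size scaling, 593 without a filter, 722 by DESeq2 and 77 without robust estimation, with 2 of the 42 genes called without a filter and 3 by DESeq2. Leaving out 1 library gave 0 to 154. In the response with NC siRNA there were 18, against 10 with a minimum of 30, 77 without a filter, 204 by DESeq2, 5 by limma-voom, 11 without robust estimation and 16 to 52 with 1 library left out. In the response with SPT6 siRNA there were 6, against 12 under library size scaling, 11 without Rn45s, 46 without a filter, 129 by DESeq2, 0 by limma-voom, 3 without robust estimation and 9 to 25 with 1 library left out.

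The labels do not say that equal replicate numbers pair the libraries, and only 2 numbers are shared. Between SPT6 siRNA and NC siRNA with IFN-beta, the differences between replicates correlated at 0.56 over 13185 genes. With a replicate block edgeR called 2638 genes with IFN-beta (32 of the 42, all lower, against 9.91% of tested genes called lower), 3245 over both treatments (30 of the 42, against 12.7%), 957 in the response with NC siRNA (1 of the 42, Pold1), 545 in that with SPT6 siRNA (1 of the 42, again Pold1) and 4 for the difference of the responses. The median response was then -0.24 with SPT6 siRNA and 0.020 with NC siRNA, with 38 and 18 of the 42 genes below 0. DESeq2 with the block called 433 genes with IFN-beta (4 of the 42, against 1.55%) and 1877 over both treatments (23 of the 42, against 7.35%). That fit and the leaving out of untreated libraries were chosen after seeing the data. The causes of these changes were not tested. Depth limits most the genes of few counts, such as Gins1 with 53 counts in SPT6 siRNA with IFN-beta replicate 1.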

Other observations

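A pair of G1 regulators outside the 42 genes differed between the replicate numbers, and they are named after their values were seen. With IFN-beta, Ccnd1 stood at 214 and 419 CPM in SPT6 siRNA cells, against 188 and 549 CPM in NC siRNA cells, and without treatment at 220.0 CPM in SPT6 siRNA cells, against 159.6 CPM in NC siRNA cells. Ccnd1, cyclin D1, which drives the early part of G1, was thus at its highest in the second replicates of both siRNA groups. With IFN-beta, Cdkn1b measured 69.1 and 33.7 CPM in SPT6 siRNA cells, against 65.6 and 49.7 CPM in NC siRNA cells, and without treatment 71.1 CPM in SPT6 siRNA cells, against 86.9 CPM in NC siRNA cells. Cdkn1b, which encodes the CDK inhibitor p27, lay lower in the second replicates than in the first ones and the untreated libraries. Cdkn1a, another CDK inhibitor with values given above, went the other way and lay higher in the second replicates. None of these differences between replicates was tested, and the share of tested genes with such orders was not counted.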
